A study of Homo sapiens with 20 samples.

Results

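The Schlafen family genes SLFN5, SLFN11, SLFN12, SLFN12L, SLFN13 and SLFN14 were followed in MDA-MB-231 cells (a long-used line of human triple-negative breast cancer) under cisplatin, ammonium tetrathiomolybdate (TM) or both drugs. These 6 of the 18417 genes measured make up the human family as the array names it. They were chosen by family name and also by measured values, because SLFN5 was selected on its higher level in the combination than in TM alone at 24 h. For SLFN5, every comparison that uses the TM 24 h or cisplatin/TM 24 h arrays is therefore given as a description with no test.

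Cisplatin damages DNA by platinum crosslinks, TM binds copper, and the study asked how TM alters the response of a cisplatin-resistant line. Per the methods, cells received 36 µM cisplatin (Cis), 10 µM TM, or both (Cis/TM), for 12 h or 24 h. There were 20 Affymetrix Human Gene 1.0 ST arrays in 7 groups, with 3 arrays for Control and for every drug and time but TM 12 h, which had 2. All groups were the same line, and the labels name no genetic change. For Control, the methods describe vehicle-treated cells collected at each time, whereas the design text calls them untreated and the labels give no time. The same 3 control arrays therefore served both times, all comparisons with Control share them, and the part of culture time in a difference from Control was not tested. The methods describe triplicate treatments in plates of 6 wells, so p-values measure the spread between such wells, which may be technical, and the number of arrays limits the precision. Values are log2 expression after robust multi-array averaging (RMA) by the authors. A gene was called higher or lower at an adjusted p under 0.05 with a fold change over 1.5 in limma, adjusted over all 18417 genes.

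Schlafen proteins share an N-terminal domain that binds or cuts RNA, and the long members add a helicase-like domain. Several are induced by interferon. SLFN11 binds replication protein A at stressed replication forks, blocks replication irreversibly and cuts transfer RNAs, and its loss is a known route to resistance to platinum and other DNA-damaging drugs. SLFN12 cuts transfer RNA when the phosphodiesterase PDE3A holds it in a complex, SLFN13 is a transfer RNA-cutting enzyme, SLFN14 acts on ribosomes and is known from inherited platelet disorders, and SLFN5 lies in the nucleus and acts on transcription.

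In RefSeq the 6 genes stand in a row on chromosome 17 in the order SLFN5, SLFN11, SLFN12, SLFN13, SLFN12L and SLFN14, with UNC45B and SLC35G3 before them and AP2B1 and RASL10B after them. Promoter entries were found for 3 of the 6, and the 250 bases before the annotated start are shown to set the short motifs of interferon and ETS factors beside the expression values. The sequences are from RefSeq on build GRCh38.p14, lie on the minus strand, and read 5′ to 3′ towards the gene, with motif matches in capitals. They are SLFN11 at chr17:35373622-35373871, SLFN12 at chr17:35433175-35433424 and SLFN12L at chr17:35537679-35537928.
SLFN11: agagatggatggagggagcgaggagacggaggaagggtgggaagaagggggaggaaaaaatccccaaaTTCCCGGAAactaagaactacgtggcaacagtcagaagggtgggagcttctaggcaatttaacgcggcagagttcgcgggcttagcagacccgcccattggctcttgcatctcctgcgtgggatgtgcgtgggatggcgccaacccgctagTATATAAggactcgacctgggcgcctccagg
SLFN12: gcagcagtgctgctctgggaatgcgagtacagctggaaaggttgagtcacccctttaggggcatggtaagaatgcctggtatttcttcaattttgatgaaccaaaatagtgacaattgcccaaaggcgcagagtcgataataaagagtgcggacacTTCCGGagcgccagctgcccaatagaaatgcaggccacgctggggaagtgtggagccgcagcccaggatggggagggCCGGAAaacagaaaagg
SLFN12L: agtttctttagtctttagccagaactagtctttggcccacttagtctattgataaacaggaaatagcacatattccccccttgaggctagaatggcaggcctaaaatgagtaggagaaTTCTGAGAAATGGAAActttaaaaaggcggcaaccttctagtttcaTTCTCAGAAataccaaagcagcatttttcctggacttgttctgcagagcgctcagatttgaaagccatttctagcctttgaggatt

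Both strands were searched for 6 motifs. The SLFN12L sequence held the interferon-stimulated response element, which is GAAA, any 2 bases and GAAA again, at 126 to 117 bases before the start, and TTCNNNGAA, the gamma-activated site, at 132 to 124, where it overlaps the first motif, and again at 86 to 78. The SLFN11 sequence held a gamma-activated site at 182 to 174 bases before the start, and the ETS core CCGGAA lay inside it at 179 to 174. It also held the TATA box TATATAA at 31 to 25. The SLFN12 sequence held the ETS core at 17 to 12, and on the opposite strand at 94 to 89. Among 35116 promoters of this length, 3.02% held the response element, 6.57% the gamma-activated site, 14.5% the ETS core and 2.42% the TATA box. The E-box CACGTG, found in 6.34%, and the antioxidant response element core TGACNNNGC, found in 10.9%, had no match in these 3 windows. The windows held 15 CpG dinucleotides for SLFN11, 9 for SLFN12 and 2 for SLFN12L, beside a median of 11 over all promoters. A match is a string of letters and not a shown binding site.

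SLFN5 was the member with the widest range, with log2 values from 6.95 to 10.29 over the 20 arrays. It was about 2-fold higher than Control after 12 h of cisplatin, more than 3-fold lower after 12 h of TM, and overlapped with cisplatin alone when both drugs were given. On the 3 control arrays SLFN5 read 9.13, 9.12 and 9.14. On the Cis 12 h arrays it read 10.04, 10.29 and 10.19, and on the Cis 24 h arrays 9.85, 9.81 and 9.76. All 6 cisplatin arrays lay above all 3 control arrays, and the 12 h arrays lay above the 24 h arrays. The TM 12 h arrays read 7.33 and 7.39, and the TM 24 h arrays read 6.95, 7.34 and 7.53. All 5 arrays of TM alone lay below every other array. The Cis/TM 12 h arrays read 10.27, 10.21 and 10.24, and the Cis/TM 24 h arrays 9.81, 9.81 and 9.70, so at each time the combination overlapped with cisplatin alone.

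**Figure D1:**
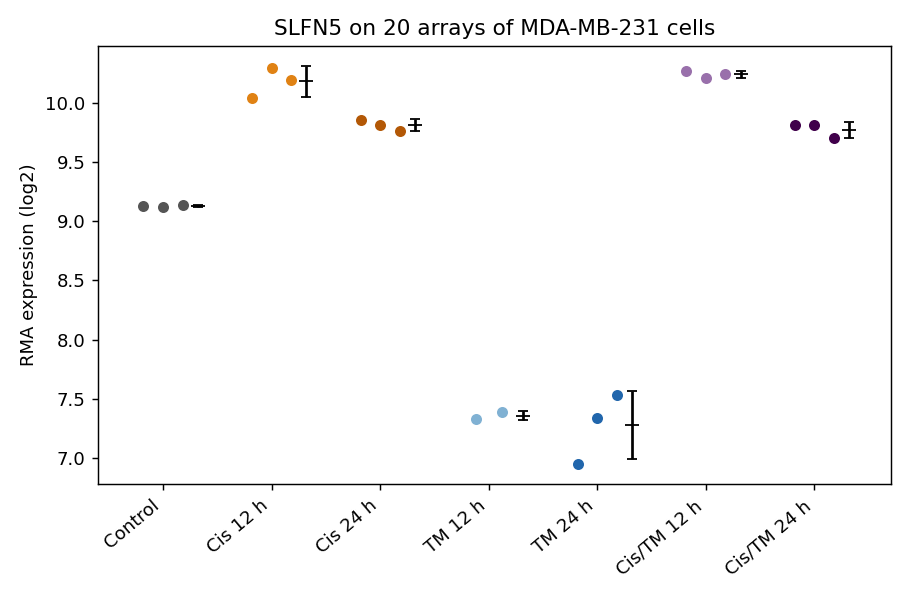
RMA log2 expression of SLFN5 (vertical axis) on each array (points) by group (horizontal axis), with the mean and SD of each group as a bar. The 5 arrays of TM alone lie between 6.95 and 7.53, below the control arrays at 9.12 to 9.14, and the arrays with cisplatin, alone or with TM, lie between 9.70 and 10.29.

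Against Control, SLFN5 rose by a log2 difference of 1.05 in Cis 12 h (standard error, SE, 0.11, 95% confidence interval 0.81 to 1.29, 2.07-fold, adjusted p = 3.06e-07). It rose by 0.68 in Cis 24 h (SE 0.11, interval 0.44 to 0.92, 1.6-fold, adjusted p = 0.000126), a change that fell under the 1.5-fold minimum at 0.57 after quantile normalization of the arrays and at 0.51 after cyclic loess. In TM 12 h SLFN5 fell by 1.77 (SE 0.13, interval -2.04 to -1.50, 3.41-fold, adjusted p = 8.97e-08), the 7th lowest difference of the 18417 genes. In Cis/TM 12 h it rose by 1.11 (SE 0.11, interval 0.87 to 1.35, 2.16-fold, adjusted p = 1.81e-07). The 24 h values, given with no test, were -1.85 in TM 24 h (3.61-fold lower) and 0.65 in Cis/TM 24 h (1.56-fold higher), and neither group overlapped with Control.

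These 4 calls of SLFN5 were the only calls among the 34 tested pairs of a member and a comparison with Control. After cisplatin, 1 of the 6 members was called at each time, where 25.5% of all genes were called at 12 h and 16.4% at 24 h. It was again 1 of 6 after 12 h of TM, where 12.1% of all genes were called, and after 12 h of the combination, where 23.8% were. In TM 24 h and Cis/TM 24 h none of the 5 tested members was called by limma, where 7.72% and 7.02% of all genes were. At an unadjusted p under 0.05, SLFN11 passed in Cis/TM 24 h, while TM 24 h had 0 of the 5.

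**Figure D2:**
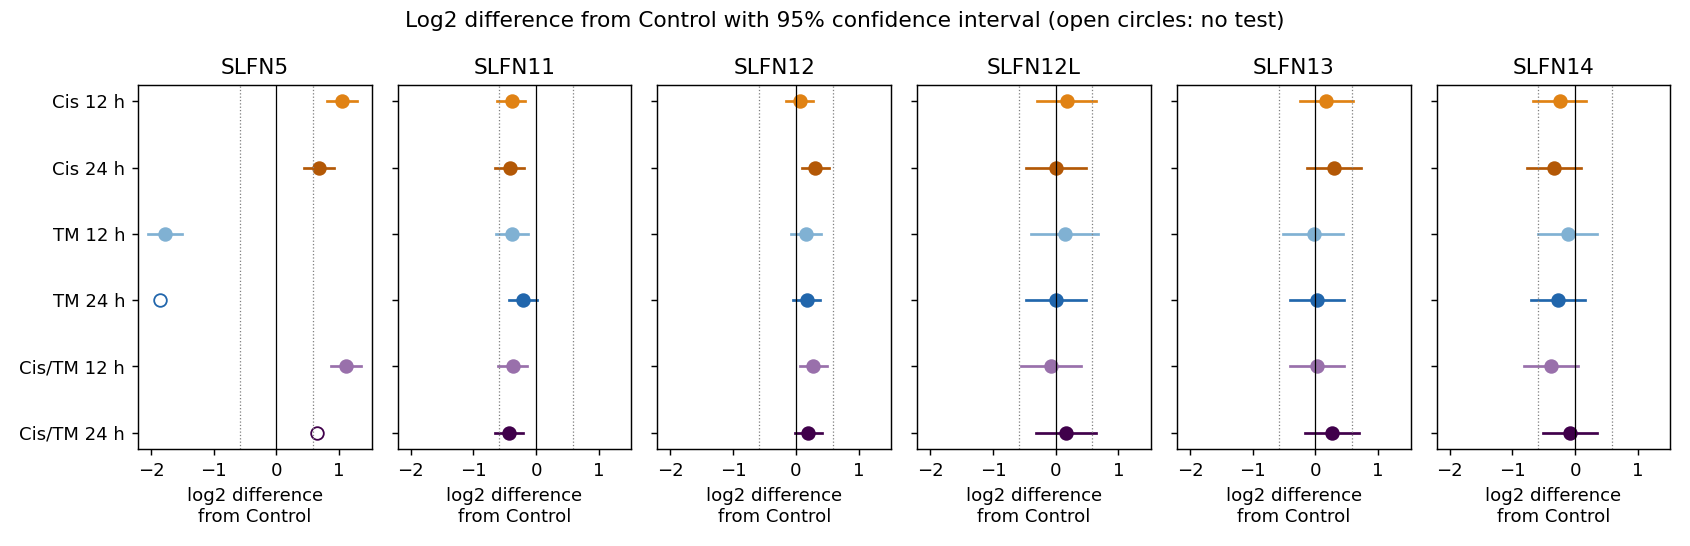
Log2 difference from Control (horizontal axis) of each Schlafen gene (panels) in each treatment and time (vertical axis), with 95% confidence intervals from limma and dotted lines at a 1.5-fold change. The open circles of SLFN5 have no interval because those arrays chose the gene. SLFN5 runs from -1.85 to 1.11. The points of the other 5 genes stay within the dotted lines, while some of their intervals cross them.

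The combination differed from TM alone and not detectably from cisplatin alone. SLFN5 was 7.38-fold higher in Cis/TM 12 h than in TM 12 h (log2 difference 2.88, SE 0.13, interval 2.62 to 3.15, adjusted p = 2.84e-11), the 3rd highest difference of all genes. Cis 12 h exceeded TM 12 h by 2.82 (SE 0.13, interval 2.55 to 3.09, adjusted p = 3.13e-11), the 5th highest. These comparisons share the TM 12 h arrays. In each, SLFN5 was the 1 member of 6 that was called, where 13.6% of all genes were called for Cis/TM 12 h against TM 12 h and 17.2% for Cis 12 h against TM 12 h. Between Cis/TM 12 h and Cis 12 h the SLFN5 difference was 0.07 (interval -0.17 to 0.30, adjusted p = 0.905) and the arrays overlapped. That comparison called 0% of all genes in limma, while 1732 genes had an unadjusted p under 0.05, none of them a Schlafen gene.

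At 24 h, Cis/TM exceeded TM by 2.50 (5.65-fold), the value that chose SLFN5 and the highest difference of all genes. Cis 24 h exceeded TM 24 h by 2.53 (5.78-fold), and Cis/TM 24 h differed from Cis 24 h by -0.03 with overlapping arrays, again with no test. Among the 5 other members none was called by limma in these 24 h comparisons, where 6.28% of all genes were called for Cis/TM against TM, 8.55% for Cis against TM and 1.5% for Cis/TM against Cis. SLFN11 alone had an unadjusted p under 0.05, in Cis/TM 24 h against TM 24 h (log2 difference -0.23, adjusted p = 0.196).

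Additive log2 changes of the drugs would have placed SLFN5 in Cis/TM 12 h below Control. The departure from additivity (Cis/TM plus Control, less Cis and TM alone) was 1.84 at 12 h (SE 0.17, interval 1.48 to 2.19, adjusted p = 5.93e-06), the 8th highest of all genes. SLFN5 was the 1 member of 6 called, where 10.3% of all genes were, and SLFN11 had 0.40 at an unadjusted p of 0.0213 (adjusted p = 0.11). The 24 h value, with no test for SLFN5, was 1.82. Of the other 5 members, 0 were called by limma at 24 h, where 16.5% of all genes were, and 0 had an unadjusted p under 0.05. The highest of them was SLFN14 at 0.53 (SE 0.29, adjusted p = 0.208), which reached 0.79 (adjusted p = 0.0293) without Control replicate B, the lowest of 3 control readings of SLFN14 at 3.26, 3.75 and 4.35.

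Between the times, SLFN5 was lower in Cis 24 h than in Cis 12 h on all arrays, by -0.37 (interval -0.61 to -0.13, adjusted p = 0.0237), which is under the 1.5-fold minimum. This difference had an adjusted p of 0.115 after each array was centred on its median. The untested differences between 24 h and 12 h were -0.08 under TM, with overlapping arrays, and -0.47 under Cis/TM, with every 24 h array lower. No member was called between times by limma, where 10.6% of all genes were called under cisplatin, 0.00543% (1 gene) under TM and 13.7% under Cis/TM. At an unadjusted p under 0.05 there were 2 members under cisplatin, SLFN5 and SLFN12, and 0 under TM and Cis/TM.

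In order of group means, SLFN5 stood at 7.28 ± 0.29 (SD, n = 3) in TM 24 h, 7.36 ± 0.04 (SD, n = 2) in TM 12 h, 9.13 ± 0.01 (SD, n = 3) in Control and 9.77 ± 0.07 (SD, n = 3) in Cis/TM 24 h. Higher still were Cis 24 h at 9.81 ± 0.05 (SD, n = 3), Cis 12 h at 10.18 ± 0.13 (SD, n = 3) and Cis/TM 12 h at 10.24 ± 0.03 (SD, n = 3). The arrays overlapped between both TM groups, between both 24 h groups with cisplatin and between both 12 h groups with cisplatin. The other neighbours in this order did not overlap. For each of the other 5 members, all neighbouring groups in the order of means overlapped.

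The 5 genes whose log2 values ran most like SLFN5 over the 20 arrays were CCNDBP1, SESN3, TXNIP, SGCB and DHRS7, with Pearson's r from 0.970 to 0.986 and Spearman's rho from 0.902 to 0.965. These are descriptions over arrays that share their groups, and over the 15 arrays without TM alone r ran from 0.795 for TXNIP to 0.931 for DHRS7. TXNIP, an inhibitor of thioredoxin, stood at 10.71 ± 0.06 (SD, n = 3) in Control, 8.81 ± 0.06 (SD, n = 2) in TM 12 h and 11.27 ± 0.08 (SD, n = 3) in Cis/TM 12 h. SESN3, a sestrin that restrains mTORC1 signaling, stood at 8.71 ± 0.13 (SD, n = 3), 7.73 ± 0.12 (SD, n = 2) and 9.42 ± 0.08 (SD, n = 3) in the same groups. At 12 h both stood below Control with TM and above it with the combination, as SLFN5 did. At 24 h of the combination SESN3 stood above Control, at 9.27 ± 0.07 (SD, n = 3). TXNIP stood at 10.64 ± 0.03 (SD, n = 3) there, with arrays that overlapped with Control. CCNDBP1, which binds cyclin D, stood at 8.55 ± 0.11 (SD, n = 3) in Control, 7.80 ± 0.14 (SD, n = 2) in TM 12 h and 8.86 ± 0.03 (SD, n = 3) in Cis/TM 12 h. SGCB, a sarcoglycan of the cell membrane, and DHRS7, a dehydrogenase, were each 1.37-fold below Control in TM 12 h, where SLFN5 was 3.41-fold below it.

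**Figure D3:**
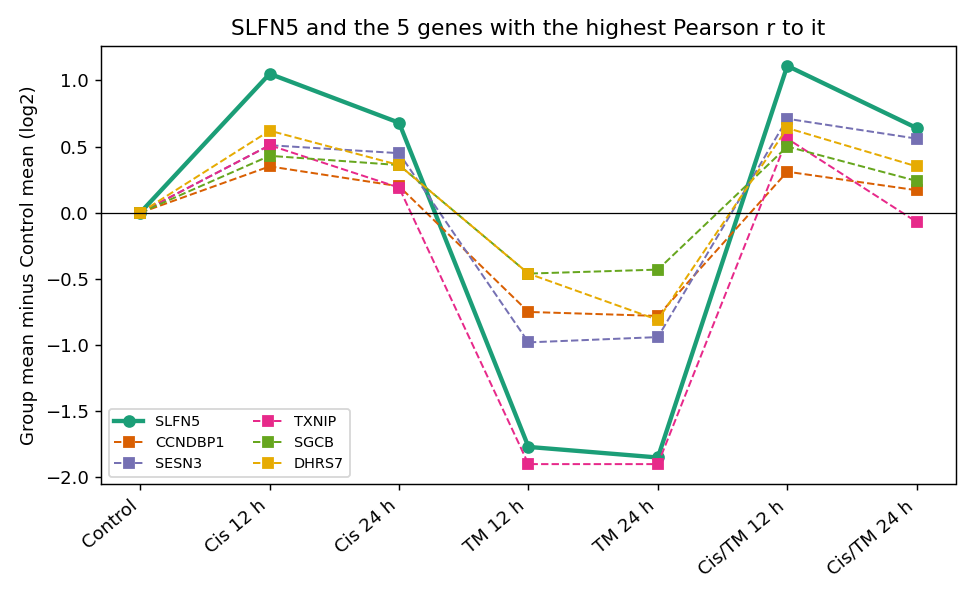
Group mean minus Control mean on the log2 scale (vertical axis) for SLFN5 and the 5 genes with the highest Pearson r to it, by group (horizontal axis), where lines join the points of 1 gene for legibility. All 6 genes lie below 0 in both TM groups, TXNIP and SLFN5 lowest with about -1.9 and -1.8, and above 0 in both 12 h groups with cisplatin.

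SLFN11, the member tied to platinum response, read between 2.72 and 3.39. Its mean over the 20 arrays, 2.96, fell among the lowest 25% of genes (under 4.51), and these values carry no background measure that would separate weak expression from none. The control arrays read 3.12, 3.39 and 3.31. The Cis 12 h arrays read 2.93, 2.72 and 2.99, and the Cis 24 h arrays 2.94, 2.83 and 2.77. The 6 cisplatin arrays were all below the control arrays, by less than 1 log2 unit. With TM, SLFN11 read 2.90 and 2.88 at 12 h, and 3.04, 3.23 and 2.92 at 24 h. In the combination it read 3.0, 2.90 and 2.79 at 12 h, and 2.83, 2.75 and 2.94 at 24 h. The TM 24 h group was the only group of treated arrays that overlapped with Control.

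SLFN11 differed from Control by -0.39 in Cis 12 h (interval -0.62 to -0.17, adjusted p = 0.00511), -0.42 in Cis 24 h (interval -0.65 to -0.20, adjusted p = 0.00427) and -0.38 in TM 12 h (interval -0.64 to -0.13, adjusted p = 0.0241). It differed by -0.37 in Cis/TM 12 h (interval -0.60 to -0.15, adjusted p = 0.00776), -0.44 in Cis/TM 24 h (interval -0.66 to -0.21, adjusted p = 0.00776) and -0.21 in TM 24 h (interval -0.43 to 0.02, adjusted p = 0.181). None reached a 1.5-fold change, so SLFN11 was called in no comparison, and none did after each array was centred on its median, where Cis 12 h stood at -0.55. The size depended on how the arrays were scaled. With quantile normalization the Cis 12 h difference was -0.12 (adjusted p = 0.346) and with cyclic loess -0.02 (adjusted p = 0.894), and the Cis/TM 12 h difference turned from -0.37 to 0.01 (adjusted p = 0.943) with cyclic loess. The spread of all genes moved with the groups too, with an SD over genes of 2.01 to 2.03 on the control arrays and 2.03 to 2.18 on the treated arrays. Its part in the SLFN11 values was not tested. Between Cis/TM and Cis, SLFN11 differed by 0.02 at 12 h (interval -0.20 to 0.25) and -0.01 at 24 h (interval -0.24 to 0.21).

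Among 9 genes of the fork and ubiquitin ligase machinery around SLFN11, all measured, none was called lower than Control. Under cisplatin 2 were called higher at 12 h and 4 at 24 h, where 25.5% and 16.4% of all genes were called. Under TM it was 2 at each time, beside 12.1% and 7.72% of all genes, and under the combination 1 at 12 h and 2 at 24 h, beside 23.8% and 7.02%. At an unadjusted p under 0.05, 3 of the 9 were lower in Cis 12 h and 2 in Cis/TM 12 h. After quantile normalization or cyclic loess, 0 were called in TM 24 h and Cis/TM 24 h, and 1 in Cis 12 h. RPA2, the subunit of replication protein A that is phosphorylated at stressed forks, rose in all 6 comparisons, with the highest log2 difference of 1.13 in Cis/TM 12 h (SE 0.12, adjusted p = 3.06e-07) and the lowest of 0.61 in Cis/TM 24 h (adjusted p = 0.00161). MCM3, part of the helicase that opens DNA for replication, gained 0.81 in Cis 24 h (SE 0.10, adjusted p = 3.64e-06). The median of the list ran from 0.24 in Cis 12 h to 0.53 in TM 12 h, beside -0.01 and -0.04 for all genes. Of 3 measured checkpoint kinases, ATM fell by 1.07 in Cis 12 h (SE 0.12, adjusted p = 3.76e-07) and by 0.81 in Cis/TM 12 h (adjusted p = 1.54e-05), and ATR fell by 0.74 in Cis 12 h (adjusted p = 6.1e-05). That made 2 of 3 in Cis 12 h and 1 of 3 in Cis/TM 12 h, beside 25.5% and 23.8% of all genes. CHEK1, which acts downstream of ATR, was not called, with 0.12 in Cis 12 h (adjusted p = 0.343). Of 6 genes that are known to act on SLFN11 or its promoter, EED, a subunit of the Polycomb complex that silences SLFN11 in other tumors, was called in Cis 24 h, at 0.59 (adjusted p = 1.16e-05), though under no other scaling, and the other 5 were called in no comparison with Control. In Cis 24 h 16.4% of all genes were called. The median of these 6 ran from -0.18 to 0.23 over the 6 comparisons.

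SLFN12, the transfer RNA nuclease of the PDE3A complex, varied little, from 8.15 to 8.65 over 20 arrays. Its control arrays read 8.16, 8.30 and 8.39, and its Cis 24 h arrays 8.65, 8.53 and 8.61, with no overlap. The difference was 0.31 (SE 0.10, interval 0.10 to 0.53, 1.24-fold, adjusted p = 0.0211). The Cis/TM 12 h arrays read 8.51, 8.58 and 8.58, a difference of 0.28 from Control (interval 0.07 to 0.49, 1.21-fold, adjusted p = 0.0314). Both are below the 1.5-fold minimum. With quantile normalization the SLFN12 differences were 0.11 in Cis 24 h (adjusted p = 0.353) and 0.10 in Cis/TM 12 h (adjusted p = 0.394), and cyclic loess gave 0.10 and 0.08. The arrays of Cis 12 h read 8.15, 8.42 and 8.47, those of TM 12 h 8.38 and 8.49, those of TM 24 h 8.31, 8.60 and 8.45, and those of Cis/TM 24 h 8.44, 8.53 and 8.47. These 4 groups differed from Control by 0.07 to 0.20, with adjusted p from 0.184 to 0.626.

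Of the phosphodiesterases that pair with SLFN12, PDE3B was called in 4 comparisons with Control and PDE3A in none. PDE3B fell by 1.72 in Cis 12 h (SE 0.19, adjusted p = 4.35e-07), by 0.81 in Cis 24 h (adjusted p = 0.00279) and by 1.66 in Cis/TM 12 h (adjusted p = 8.37e-07), and rose by 0.75 in TM 12 h (adjusted p = 0.015), a call that was lost with quantile normalization and with cyclic loess. Cis/TM 12 h was below TM 12 h by -2.42 for PDE3B (SE 0.22, adjusted p = 8.63e-08), where 13.6% of all genes were called. PDE3B thus stood high where SLFN5 stood low. PDE3A, the main partner of SLFN12, had log2 differences from Control that ran from -0.57 in TM 12 h to -0.28 in TM 24 h. At an unadjusted p under 0.05 in limma it was lower in each comparison with Control. Its group means ran from 3.90 in TM 12 h to 4.47 in Control, among the lowest 25% of genes (under 4.51). Weak expression of PDE3A cannot be told from none there.

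SLFN12L, SLFN13 and SLFN14 did not pass the test in any of the 17 comparisons. SLFN12L, a little-studied neighbour of SLFN12, read from 4.62 to 5.81, and the lowest and highest arrays were 1 of TM 24 h and 1 of Cis/TM 24 h. Its differences from Control ran from -0.08 in Cis/TM 12 h (interval -0.56 to 0.40) to 0.18 in Cis 12 h (interval -0.30 to 0.65), with adjusted p from 0.558 to 0.999. SLFN13 read from 3.41 to 4.56, with differences from -0.03 in TM 12 h (interval -0.51 to 0.44) to 0.29 in Cis 24 h (interval -0.14 to 0.72) and adjusted p from 0.280 to 0.959. SLFN14 read from 3.16 to 4.35, and its lowest difference was -0.39 in Cis/TM 12 h (interval -0.81 to 0.04, adjusted p = 0.131). Without Control replicate B it was -0.65 (adjusted p = 0.00876), and the Cis 24 h difference moved from -0.34 to -0.60 (adjusted p = 0.0181). For each of these 3 genes some intervals reached past a 1.5-fold change (0.585 on the log2 scale). Changes somewhat above that minimum, and smaller ones, could therefore have gone undetected with these arrays.

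**Figure D4:**
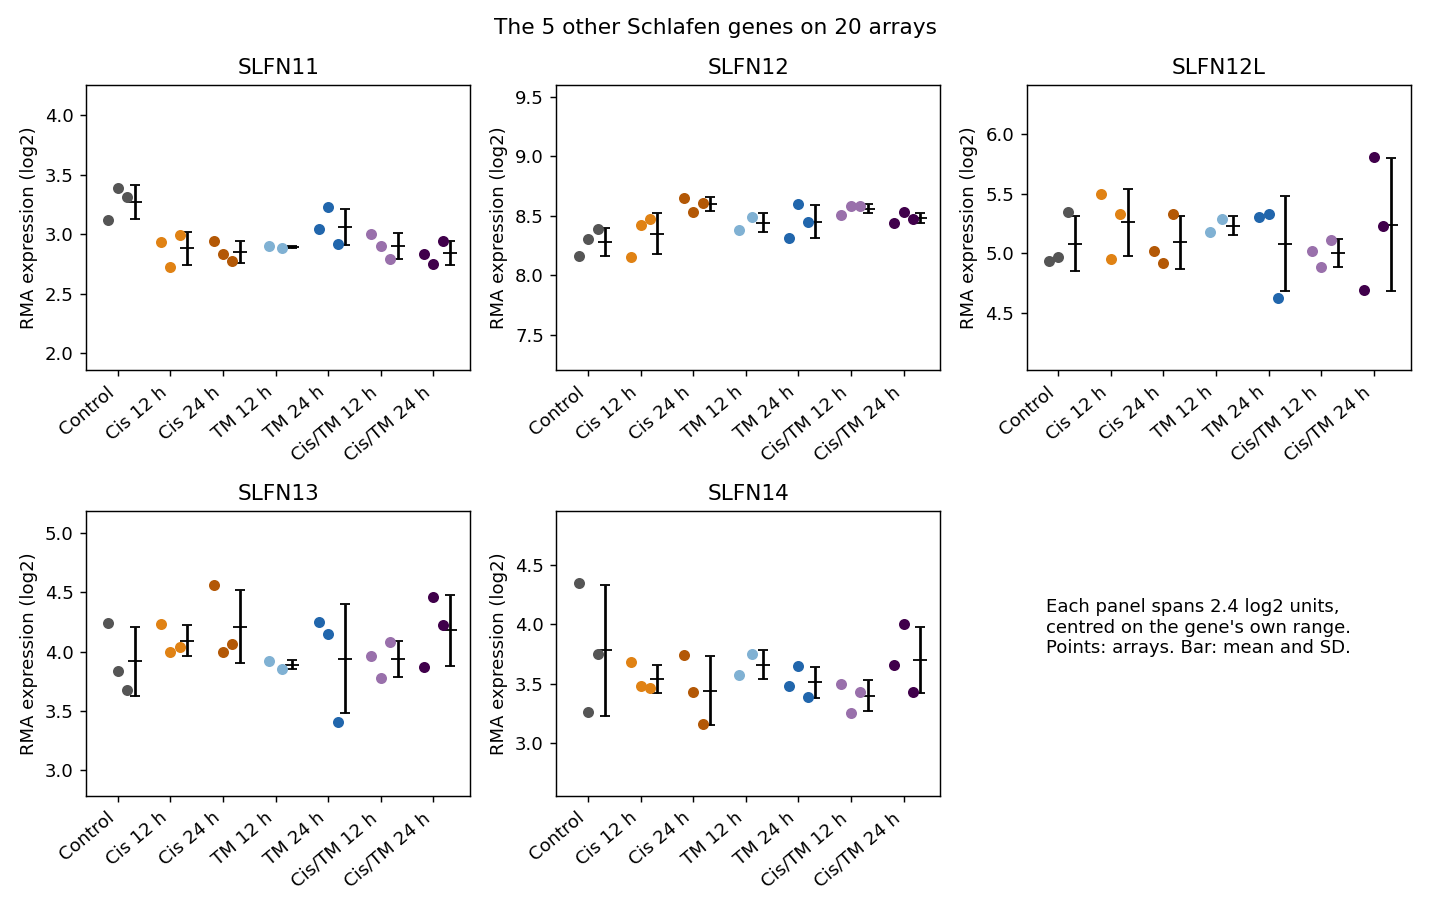
RMA log2 expression (vertical axis) of SLFN11, SLFN12, SLFN12L, SLFN13 and SLFN14 on each array (points) by group (horizontal axis), with the mean and SD of each group as a bar. SLFN12 stays between 8.15 and 8.65 and SLFN11 between 2.72 and 3.39, while single arrays of SLFN12L, SLFN13 and SLFN14 stand apart from others of their group.

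Of the 6 members, 3 passed a filter that left out the lowest 25% of genes by mean, namely SLFN5, SLFN12 and SLFN12L. SLFN11, SLFN13 and SLFN14 did not. Of the 15 genes listed around the cluster on 17q12, 12 were measured, and at most 2 were called in a comparison with Control. A count of 2 was reached after 12 h of TM (beside 12.1% of the 18417 genes) and after 12 h of both drugs (beside 23.8%). Cisplatin alone gave 1 at each time, beside 25.5% and 16.4%. At 24 h, TM and both drugs gave 0, beside 7.72% and 7.02%. LIG3, a DNA ligase, rose most in TM 12 h, by 0.89, and by 0.66 in Cis 24 h and 0.63 in Cis/TM 12 h. ZNF830, a zinc finger protein of genome maintenance, rose by 0.86 in Cis 12 h and 0.76 in Cis/TM 12 h, and NLE1, a ribosome assembly factor, rose by 0.69 in TM 12 h. None of the 12 was called lower in a comparison with Control, though 1 to 3 were lower at an unadjusted p under 0.05 in each. After quantile normalization 1 was called lower in TM 12 h. AP2B1, an adaptor of clathrin coats, missed the 1.5-fold minimum with -0.51 in Cis 12 h (adjusted p = 0.000122), and TAF15, an RNA-binding protein, with -0.55 (adjusted p = 1.23e-05). The list median ran from -0.05 to 0.11, and the calls of Cis 24 h and Cis/TM 12 h were lost with quantile normalization and with cyclic loess. SLFNL1, the more distant Schlafen-like gene on another chromosome, was not called, with differences from 0.10 to 0.39.

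Since several family members respond to interferon, the genes of that pathway were set beside SLFN5. Of 9 measured interferon ligands, 0 were called by limma against Control in any of the 6 comparisons. Those comparisons called 7.02% to 25.5% of all genes. At an unadjusted p under 0.05, 2 to 5 of the 9 passed per comparison, nearly all lower, and the list median ran from -0.31 to -0.09. IFNB1, IFNA2, IFNE, IFNK, IFNW1 and IFNG read under 4.51 in every group, among the lowest 25% of genes, as SLFN11 did. Weak expression cannot be told from none there. IFNB1, the interferon beta gene, had -0.29 in Cis 12 h (adjusted p = 0.0693) and 0.00 in TM 24 h. Of 13 measured genes of receptors and signalling, cisplatin raised 3 and lowered 1 at 12 h and raised 5 at 24 h, beside 25.5% and 16.4% of all genes called. The 5 became 2 with quantile normalization or cyclic loess. TM changed none at either time by limma (2 at 12 h and 4 at 24 h at an unadjusted p under 0.05), beside 12.1% and 7.72% of all genes. The combination raised 3 at each time, beside 23.8% of all genes at 12 h and 7.02% at 24 h. The list median ran from -0.02 in TM 24 h to 0.35 in Cis/TM 12 h. IRF1, an interferon-responsive transcription factor, rose by 1.59 in Cis 12 h (SE 0.19, adjusted p = 1.04e-06), 1.62 in Cis/TM 12 h (adjusted p = 9.92e-07) and 0.68 in Cis/TM 24 h. IRF9, which acts on interferon response elements, rose by 1.18 in Cis 12 h (adjusted p = 1.65e-06) and 1.06 in Cis/TM 12 h (adjusted p = 7.18e-06), and was 0.13 in TM 12 h with no call. The kinase JAK1 was the gene that fell, by 0.78 in Cis 12 h (adjusted p = 6.21e-05).

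All 32 listed interferon-stimulated genes were measured, and they moved in both directions. Under cisplatin 9 rose and 2 fell at 12 h (6 and 4 with cyclic loess), and 7 rose at 24 h, where 25.5% and 16.4% of all genes were called. Under TM 4 rose and 1 fell at 12 h, and 1 fell at 24 h, beside 12.1% and 7.72% of all genes. Under the combination 10 rose and 2 fell at 12 h, and 10 rose at 24 h, beside 23.8% and 7.02%. Nothing particular to the list is read from these counts. The median log2 difference of the list for cisplatin was 0.06 at 12 h and 0.37 at 24 h, that for TM 0.00 and -0.03, and that for the combination 0.13 and 0.34, beside -0.05 to -0.00 for all genes. IFIT2, which binds viral RNA, rose by 1.41 in Cis 12 h (SE 0.14, adjusted p = 6.59e-08), 1.32 in Cis/TM 12 h and also 0.61 in TM 12 h (adjusted p = 0.006). OASL, an antiviral 2'-5'-oligoadenylate synthetase-like protein, rose by 0.95 in TM 12 h (SE 0.17, adjusted p = 0.00043). Both went up in TM 12 h, the group where SLFN5 went down. At an unadjusted p under 0.05, 9 of the 32 were higher and 3 lower in TM 12 h. In TM 24 h, 4 were higher and 7 lower. SAMD9L, an antiviral protein that cuts transfer RNA, fell by 1.02 in TM 12 h (adjusted p = 0.000823), by 1.15 in TM 24 h (adjusted p = 0.000151), by 1.49 in Cis 12 h (adjusted p = 7.88e-07) and by 1.21 in Cis/TM 12 h (adjusted p = 1.27e-05). At 12 h it fell with TM, as SLFN5 did, and also with cisplatin, where SLFN5 rose.

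**Figure D5:**
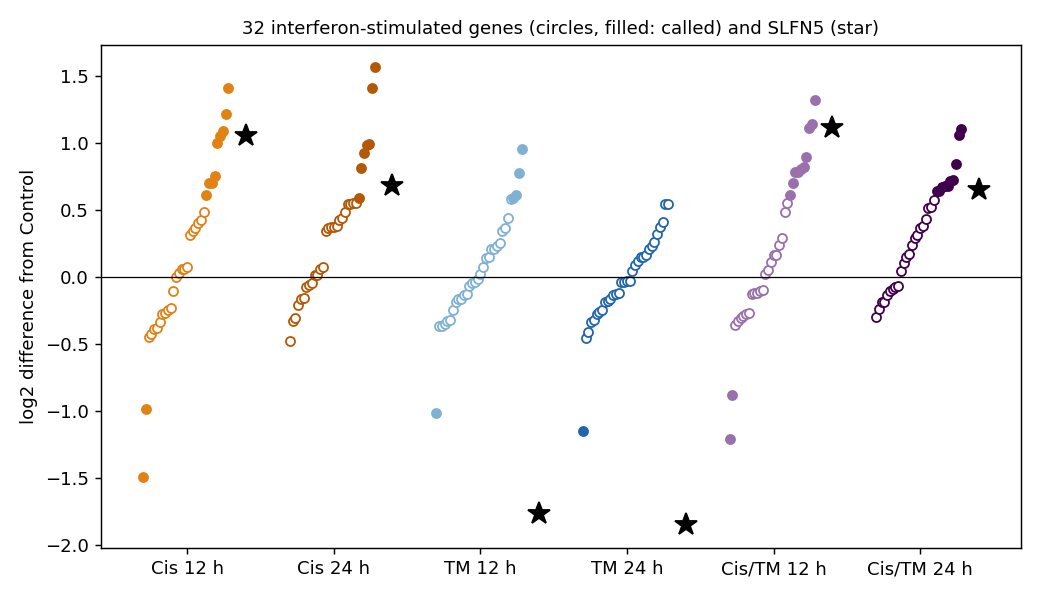
Log2 difference from Control (vertical axis) of 32 interferon-stimulated genes (circles, filled where called) and SLFN5 (star) in each treatment and time (horizontal axis), with the genes ordered by value. SLFN5 is among the higher values in the groups with cisplatin, at 0.65 to 1.11, and below all 32 genes in TM 12 h and TM 24 h, at -1.77 and -1.85.

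Of 6 measured genes that cut or sense RNA beside the Schlafen proteins, 1 rose and 2 fell in Cis 12 h, where 25.5% of all genes were called, and the list median ran from -0.11 to 0.10 over the 6 comparisons. ELAC2, which trims the 3′ end of transfer RNAs, rose by 1.06 in TM 12 h (SE 0.15, adjusted p = 5.59e-05), 0.97 in Cis 12 h (SE 0.13, adjusted p = 6.13e-06) and 0.99 in Cis/TM 12 h. The double-stranded RNA kinase EIF2AK2 fell by 0.78 in Cis 12 h (adjusted p = 8.23e-06), and the nucleotide hydrolase SAMHD1 fell by 0.74 (adjusted p = 6.5e-05). For the labelled line, the 7 listed markers were VIM, CD44, KRT7, KRT8, KRT18, CAV1 and EGFR. Their means ran from 7.12 to 11.56, none in the lowest 25% of genes. Means of 6 luminal and epithelial genes listed as low in the line ran from 3.61 to 6.20, with 3 in the lowest 25%. Of 6 measured leukocyte markers, cells that use several Schlafen genes, 4 lay in the lowest 25% of genes, and group means of the list ran from 3.86 to 4.23.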

How the data were processed

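Affymetrix Human Gene 1.0 ST arrays measured RNA of MDA-MB-231 cells, isolated by RNeasy per the methods and by Trizol per the labels. The authors background-corrected, normalized and summarized the arrays with RMA, and the deposited log2 values were taken as they are. At low signal RMA shrinks differences, and no measure of background was used. Of 33297 transcript clusters, 19460 had 1 symbol, 1754 several and 12083 none, and 19429 matched RefSeq by gene ID. Each of 18417 genes, and each Schlafen gene, was read from its single-symbol cluster with the highest mean.

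With limma 3.58.1 in R 4.3.3, a linear model of the 7 groups was fitted over the 20 arrays, leaving 13 residual degrees of freedom. Benjamini-Hochberg adjustment ran over all genes of a comparison. Calls needed an adjusted p under 0.05 with a change over 1.5-fold. Array medians ran from 5.71 to 5.94. The family members and the gene lists were chosen with earlier results of these data known. All 6 members were named, with up to 4 called genes per list by adjusted p, any SLFN12 partner, SLFN11 regulator or 17q12 neighbour, and the 5 genes nearest to SLFN5. CHEK1, IFNB1, SLFNL1, and IFIT2 in TM 12 h, were named after their values were seen. The procedure was tested on simulated data. Alternatives were other scalings, a filter on low values, other variance settings, a replicate block, fits of the compared groups alone and leaving out each array.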

Additional observations from a re-analysis of the deposited data

Results flagged for a closer look

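The effect of TM on SLFN5 differed between cells with and without cisplatin at 12 h, by 1.84 on the log2 scale in limma (SE 0.17, adjusted p = 5.93e-06). TM lowered SLFN5 below Control on 2 of 2 arrays, and the 3 arrays of the combination overlapped with those of cisplatin alone. Leaving out 1 array at a time moved this value between 1.77 and 1.89. Without cisplatin, TM was compared with Control arrays whose labels give no time. The part of culture time in the value was not tested.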

How the results depend on the processing

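SLFN5 kept its direction in all tested comparisons with Control under each scaling, variance setting, filter and left-out array. Its rise in Cis 24 h went under the 1.5-fold minimum with quantile normalization (0.57, adjusted p = 9.87e-05) and with cyclic loess (0.51, adjusted p = 0.000339). Leaving out 1 array at a time gave 1 to 2 members called for the interaction of the drugs, and the added member was SLFN14 at 24 h without Control replicate B. With the replicate block, the Schlafen genes had 4 calls against Control, 2 between treatments and 1 for the interaction, the same counts as without it, and SLFN5 stood at -1.76 in TM 12 h (adjusted p = 6.01e-07). Residual correlations between arrays sharing a replicate letter ran from -0.42 to 0.61 (median 0.0083, 57 pairs), and 19 of the 57 exceeded 0.1. Whether the letters pair some of the arrays was not tested. Counts for the pathway lists moved with scaling. With cyclic loess, 6 interferon-stimulated genes rose and 4 fell in Cis 12 h, against 9 and 2. Low signal limits SLFN11, SLFN13 and SLFN14, and 2 arrays limit TM 12 h. Per-array background was not used here.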
